A study of Mus musculus with 4 samples.

Results

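The cells described here are the transferred OT-1 CD8 T cells of a mouse melanoma experiment, chosen as every cell that the authors' deposited annotation names T_CD8. They numbered 141 of 33368 CD45+ cells. OT-1 T cells carry a transgenic receptor for an ovalbumin peptide. YUMM1.7 mouse melanoma cells expressing ovalbumin were grown in Rag2-/- mice, OT-1 T cells were given on day 7, and live CD45+ cells were sorted from the tumours on day 10, 72 h after transfer. All 4 groups received the T cells. NTT was a tumour line naive to targeted therapy (Y1.7_NTT_3A6), RTT a line resistant to it and kept in the BRAF inhibitor dabrafenib (Y1.7_RTT_2B12), RTT_ROSA26 the resistant line with a guide against the Rosa26 locus as a control, and RTT_PTGS12KO the resistant line after knockout of Ptgs1 and Ptgs2, the cyclooxygenase genes that start prostaglandin synthesis. The edited lines were kept in dabrafenib in culture as well. The study's methods give a range of adult ages for the hosts, a wider one for the OT-1 donors, and groups matched for age and sex, but no age or sex for the mice behind each sample.

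Each group is 1 sample. The labels speak of a single tumour per condition and the study's figure legends of pooled tumours, and this was not settled. The T cells came from OT-1 donors, were activated in culture with antibodies to CD3 and CD28 and with interleukin-2, and were expanded before transfer, so part of their activation preceded the tumour. The knockout was made in the cancer cells only, NTT and RTT_PTGS12KO differ in the parental line as well as in the edited genes, and these cannot be told apart. With 1 sample per group no test was made. Intervals are 95% intervals that cover counting error only, and neither the spread between cells, which was far larger, nor that between tumours.

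CD8 T cells that recognise peptide on major histocompatibility complex (MHC) class I act in 2 ways. They kill through perforin, which opens the target's membrane to granzymes, and they secrete interferon-gamma and chemokines such as CCL3, CCL4 and XCL1, which act on macrophages, dendritic cells and other T cells. Secretion is switched on and off quickly by receptor signals through the factors NFAT and AP-1, while perforin and granzymes are stored in granules for longer. Naive and memory-like T cells carry the factor TCF-1 (Tcf7), and T cells that meet antigen for long take on inhibitory receptors such as PD-1 (Pdcd1).

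The guides that made the RTT_PTGS12KO line are shown because they are the difference between this line and its guide control. Both were found in coding sequence of GRCm38, on the strand opposite to the gene, the Ptgs1 guide in exon 11 of 11 at chr2:36251276-36251295 and the Ptgs2 guide in exon 7 of 10 at chr1:150104014-150104033. Bases in capitals are the adjoining PAM, which the nuclease needs and which lies outside the coordinates.
Ptgs1 guide: gcacacggaaggaaacatagGGG
Ptgs2 guide: gttgtgctcccgaagccagaTGG

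T cells were found mainly in NTT and RTT_PTGS12KO. NTT held 93 T cells, 1.13% of its CD45+ cells (exact Clopper-Pearson interval 0.909 to 1.38), RTT_PTGS12KO held 45, 0.437% (0.319 to 0.584), RTT held 1 and RTT_ROSA26 held 2. The pool of samples was loaded on the droplet chip 3 times, per the labels, and the load of a cell was read from its barcode suffix, which no label assigns to a load. Per load NTT gave 28, 28 and 37 T cells and RTT_PTGS12KO 8, 18 and 19. Loads come from the same pool and are not biological replicates. Within T and natural killer (NK) cells together, the T cell share was 11.6% for NTT (9.46 to 14.0), 12.8% for RTT_PTGS12KO (9.51 to 16.8), and 7.14% for both RTT (0.181 to 33.9) and RTT_ROSA26 (0.877 to 23.5). The RTT and RTT_ROSA26 values rest on 1 and 2 T cells. T cells had a median of 12453 UMIs (counted RNA molecules) in NTT (range 2659 to 79475) and of 19994 in RTT_PTGS12KO (5710 to 85991), so shares of cells with a UMI are given at a fixed depth. The 98 cell barcodes that occurred in more than 1 load included 0 of the T cells' barcodes.

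The name was checked against the markers Cd3e, Cd8a, Cd8b1 and Trac, which encode a CD3 chain, both CD8 chains and the constant region of the receptor alpha chain. Cd3e was at 374 CPM (UMIs per 1e6 UMIs of the summed cells) in the 141 T cells, 5.26 CPM in NK cells and 0.0679 CPM in all other cells, and 136 of the 141 T cells had a UMI. Cd8b1 was at 371, 1.60 and 0.325 CPM in the same order, Cd8a at 165, 0.0763 and 0.108 CPM, and Trac at 263, 10.4 and 0.555 CPM. The markers fit the name, although the cells were clustered on these genes, so this is a description. Cd4 and Foxp3 of CD4 T cells, Ms4a1 of B cells and Mlana, Pmel, Dct and Tyr of melanoma cells had 0 UMIs, while the B cell gene Cd79a had 3 and Ighm was at 61.5 CPM in NTT and 50.1 CPM in RTT_PTGS12KO. In T cells of NTT 4 of 6 CD4 T cell genes, 3 of 6 B cell genes and 1 of 8 melanoma genes had UMIs, and in those of RTT_PTGS12KO 4, 1 and 1. Of 12 NK cell genes, 10 had UMIs in T cells of NTT and 6 in those of RTT_PTGS12KO. Among the defining ones Klra8 and Klra4 had 0 UMIs, the receptor gene Ncr1 had 6 and Klrb1c 10, all in NTT, while Eomes, a factor of NK cells and CD8 T cells, had 169 over all samples. The 12 genes summed to 1.33 and 1.27 UMIs per 1000 in T cells of NTT and RTT_PTGS12KO, against 16.6 and 10.7 in NK cells. Trdc, the constant region of the delta chain of gamma-delta T cells, had 157 UMIs in 42 cells, while the gamma-delta factor Sox13 had none in NTT or RTT_PTGS12KO. A gate of at least 2 UMIs from CD3 genes and Trac and at least 1 from CD8 genes took in 137 of the 141 T cells, 5 NK cells and 1 other cell.

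The V gene of the receptor's beta chain was one that OT-1 T cells use. In the T cells all 44 UMIs from the 35 measured V genes of the beta chain came from Trbv12-1, a V beta 5 gene, and they lay in 35 cells. NK cells had 3 further Trbv12-1 UMIs and all other cells 0. V genes of the alpha chain had only 16 UMIs, from 9 different genes, so a single alpha chain was not seen. The reads were tagged at the 3' end, far from the V region, so its absence from a cell says nothing. A difference in sex chromosome RNA also set the T cells apart from the host's cells. The 4 Y-linked genes Ddx3y, Eif2s3y, Kdm5d and Uty (chosen after their values were seen) summed to 119 CPM in T cells, 1.37 CPM in NK cells and 0.0538 CPM in all other cells, and 102 of the 141 T cells had at least 1 of their UMIs. T cells had 126 CPM of them where NTT was the tumour and 112 CPM in RTT_PTGS12KO, and the RTT cell and 1 of the 2 RTT_ROSA26 cells had such UMIs. Xist, the RNA of the silenced X chromosome, ran the other way, at 43.6 CPM in T cells and 459 CPM in other cells of NTT and at 37.2 and 534 CPM in RTT_PTGS12KO. Of the 33227 cells with another name, 7 had at least 2 Y-linked UMIs, and 4 of those 7 were named NK cells.

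**Figure D1:**
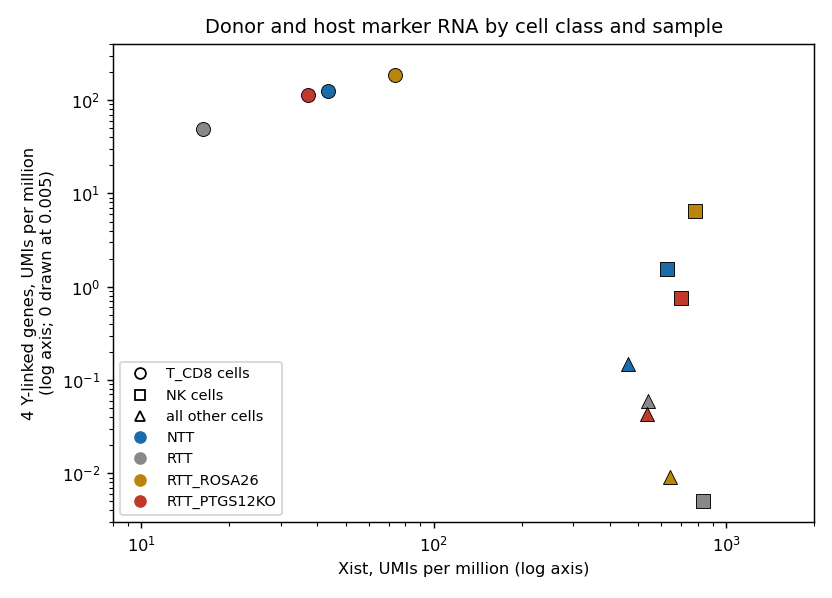
Summed level in CPM of 4 Y-linked genes (vertical, log axis) against Xist (horizontal, log axis) for T_CD8 cells, NK cells and all other cells of each sample. T cells lie at the upper left in every sample, with 48.8 to 184 CPM of Y-linked genes and 16.3 to 73.6 CPM of Xist, although the RTT and RTT_ROSA26 points rest on 1 cell with Y-linked UMIs each.

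Xist and myeloid marker RNA was also counted in T cells. Of the 141 T cells, 30 had a Xist UMI, and the Xist level in T cells was 9.49% of that in other cells of NTT and 6.96% in RTT_PTGS12KO. All 18 myeloid marker genes had UMIs in T cells of both samples. Over the summed T cells they made up 4.44 UMIs per 1000 in NTT and 3.99 in RTT_PTGS12KO, beside 34.7 and 39.6 over the summed cells that were neither T nor NK cells. Single T cells had a median of 1.82 per 1000 in NTT (range 0.291 to 30.9) and of 1.46 in RTT_PTGS12KO (0.436 to 42.6). All samples shared the same droplets, so free RNA was common to them, and whether this RNA came from free RNA, from attached cells or from the T cells was not tested.

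The 3 T cells of the resistant controls can only be listed. The RTT cell had 61461 UMIs, with 58 from CD3 genes and Trac, 9 from CD8 genes, 3 from the Y-linked genes, 91 from Gzmb, 22 from Xcl1 and 3 from Ifng. The RTT_ROSA26 cells had 7541 and 19640 UMIs, with 6 and 30 from CD3 genes and Trac, 11 and 22 from CD8 genes, 0 and 5 from the Y-linked genes, 5 and 45 from Gzmb and 2 and 0 from Ifng. All 3 carried granzyme B RNA and at most 3 UMIs of interferon-gamma RNA. No profile was drawn from so few cells.

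T cells held most of the interferon-gamma RNA of NTT and RTT_PTGS12KO. Of all Ifng UMIs, 75.8% in NTT (3397 of 4482; interval 74.5 to 77.0) and 94.7% in RTT_PTGS12KO (10063 of 10626; 94.3 to 95.1) lay in T cells, which made up 1.13% and 0.437% of the cells. In RTT and RTT_ROSA26, with 1 and 2 T cells, T cells held 3 of 71 and 2 of 72 Ifng UMIs, and 91.5% and 81.9% lay in cells that were neither T nor NK cells. Over all cells of a sample Ifng was at 64.6 CPM for NTT and 72.4 for RTT_PTGS12KO, against 0.608 for RTT and 0.653 for RTT_ROSA26. NTT and RTT_PTGS12KO thus had like levels in the whole sort, RTT_PTGS12KO from fewer T cells. Xcl1, a chemokine for cross-presenting dendritic cells, was shared with NK cells, and T cells held 37.2% of its UMIs in NTT and 32.5% in RTT_PTGS12KO. Killing genes sat mostly in NK cells. T cells held 11.0% and 19.4% of Gzmb (granzyme B), 8.82% and 14.0% of Fasl (the death ligand FasL), 1.97% and 2.26% of Prf1 (perforin) and 0.903% and 1.88% of Gzma (granzyme A). Ccl3 and Ccl4, chemokines that attract macrophages and T cells, came mostly from cells that were neither T nor NK cells, with 3.94% and 6.96% of Ccl3 and 6.39% and 7.27% of Ccl4 in T cells.

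**Figure D2:**
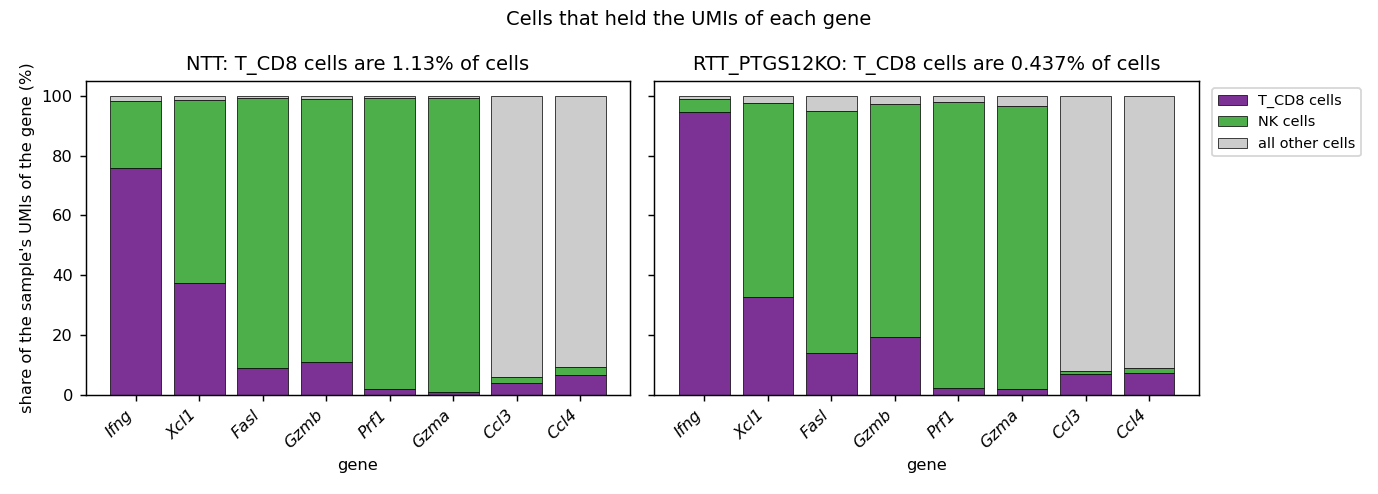
Share of each gene's UMIs in a sample (vertical, percent) held by T_CD8 cells, NK cells and all other cells, in NTT and RTT_PTGS12KO. T cells held 75.8% and 94.7% of Ifng but 1.97% and 2.26% of Prf1.

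Ifng lies at chr10:118441046-118445892 of GRCm38, Ccl3 at chr11:83647844-83649355, Ccl4 at chr11:83662584-83664683, Gzmb at chr14:56258838-56262260 and Satb1 at chr17:51736187-51833290, and all are annotated as protein coding. Within the T cells, Ifng was at 2177 CPM in NTT (93 cells; exact Poisson interval 2104 to 2251) and 8697 CPM in RTT_PTGS12KO (45 cells; 8528 to 8869), a log2 ratio of 2.00 (1.94 to 2.05). The T cells of each load were at 1754, 676 and 3396 CPM in NTT and at 7097, 4021 and 14801 CPM in RTT_PTGS12KO. Every load of RTT_PTGS12KO lay above every load of NTT, although loads within a sample differed more than 3-fold. Over the cells the median was 1.39 UMIs per 10000 in NTT and 6.38 in RTT_PTGS12KO, and 66 of 93 and 41 of 45 cells had a UMI. With each cell thinned to 4000 UMIs, which left out 4 NTT cells and 0 RTT_PTGS12KO cells, 52.4% and 73.9% had an Ifng UMI, against 30.1% and 21.0% of NK cells and 0.440% and 0.352% of all other cells. The ratio kept its sign in 17 of 17 other settings, from 1.95 to 3.51. Those with another minimum or only genes higher in T cells change which genes are counted, so they could not alter it.

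A few cells carried most of the interferon-gamma RNA. In NTT 4 of 93 cells and in RTT_PTGS12KO 4 of 45 cells held 50% of the Ifng UMIs, while for Cd3e it took 21 and 10 cells. Cells with at least 100 Ifng UMIs per 10000 numbered 8 in NTT (8.60%; interval 3.79 to 16.2) and 11 in RTT_PTGS12KO (24.4%; 12.9 to 39.5). The highest level was 282 per 10000 in NTT and 799 in RTT_PTGS12KO. Without the cell of each sample that had the most Ifng UMIs, which was another cell in both, the log2 ratio was 2.10.

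**Figure D3:**
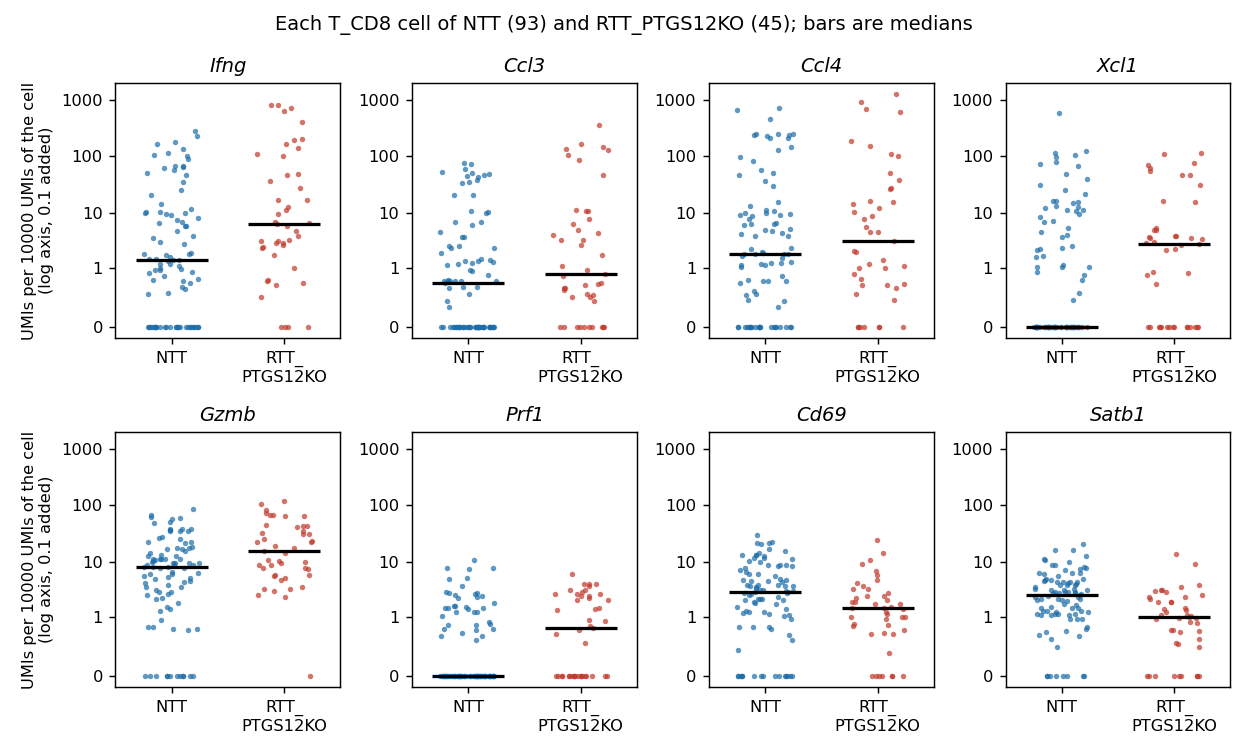
UMIs per 10000 UMIs of each T_CD8 cell (vertical, log axis with 0.1 added) for 8 genes in NTT (93 cells) and RTT_PTGS12KO (45 cells), with bars at the medians. Ifng runs from 0 to 282 in NTT and to 799 in RTT_PTGS12KO, and for every gene shown the cells of both samples overlap.

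The chemokines differed too, but with less even support. Ccl3 was at 609 CPM in NTT (571 to 649) and 2035 CPM in RTT_PTGS12KO (1954 to 2119), a log2 ratio of 1.74 (1.63 to 1.85). By load it was at 602, 403 and 745 CPM in NTT and at 1616, 331 and 4183 CPM in RTT_PTGS12KO, so the loads overlapped, and without the third load the log2 ratio was 0.49. Ccl4 was at 3035 CPM (2949 to 3123) and 6391 CPM (6246 to 6538), a log2 ratio of 1.07 (1.02 to 1.13), of which 32.8% of the RTT_PTGS12KO UMIs lay in 1 cell. Without the 10% of cells that had the most Ccl4 UMIs in each sample, the ratio was -0.025, and without the third load 0.30, so the Ccl4 difference rested on its highest cells. Xcl1 was at 1162 and 1474 CPM (log2 ratio 0.34, 0.25 to 0.44) and turned to -0.08 without the third load. Ccl5, a further chemokine of T cells and NK cells, was lower in RTT_PTGS12KO, at 438 CPM against 771 (log2 ratio -0.81), and lay below its NK cell level in both samples. T cells held 0.764% and 0.990% of its UMIs, and 82.7% and 85.7% lay in cells that were neither T nor NK cells. Its level over all cells of the sample was 2272 CPM in NTT and 349 CPM in RTT_PTGS12KO. The part of free RNA in the T cell value was not tested.

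The cytotoxic genes differed less than Ifng. Gzmb was at 1661 CPM in NTT and 2505 CPM in RTT_PTGS12KO, a log2 ratio of 0.59 (0.52 to 0.67). By load it was at 1462, 1971 and 1587 CPM in NTT and at 724, 2741 and 3069 CPM in RTT_PTGS12KO, where the load with 8 T cells lay below all of NTT. Per cell the Gzmb median was 8.24 UMIs per 10000 in NTT and 15.8 in RTT_PTGS12KO, and at 4000 UMIs 79.8% and 93.0% of T cells had a UMI, so most T cells carried it in both tumours. Prf1 was at 102 and 131 CPM (log2 ratio 0.35, 0.03 to 0.69) and turned to -0.34 without the third load. Gzma was at 384 and 462 CPM but in only 27 of 93 and 19 of 45 cells, and its log2 ratio of 0.26 turned to -1.51 without the third load. Nkg7, a granule protein, was at 953 and 899 CPM (log2 ratio -0.08), and Serpinb9, which shields a killer cell from its own granzyme B, at 218 and 294 CPM (0.43). Of 25 effector genes listed, 14 had at least 50 CPM in the mean of both samples, and their median log2 ratio was 0.30 beside 0.02 over all 2469 such genes, of which 1327 were higher and 1142 lower in RTT_PTGS12KO. Without the third load the effector median was 0.014. Among these 14, 3 were at least 2-fold higher in RTT_PTGS12KO (Ifng, Ccl3 and Ccl4) and 0 were at least 2-fold lower. The background was 0.405% of genes at least 2-fold higher (10 of 2469) and 1.17% at least 2-fold lower (29 of 2469).

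Ifng ranked cells more like Ccl3 and Ccl4 than like the granule genes. Across the T cells of 1 sample, which share a library and differ in depth, the Spearman rank correlation of Ifng with Ccl3 was 0.57 in NTT (93 cells) and 0.67 in RTT_PTGS12KO (45 cells), and with Ccl4 it was 0.65 and 0.68. With Xcl1 it was 0.52 and 0.38, and with Tnfrsf9, the costimulatory receptor 4-1BB, 0.48 and 0.42. Ifng with Gzmb gave 0.14 and 0.26 and with Prf1 0.04 and 0.20, while Gzmb gave 0.59 and 0.54 with Prf1 and 0.21 and 0.46 with Gzma. The differences between these values were not tested. With the cell's UMI total the rank correlation was 0.10 and -0.12 for Ifng, 0.03 and 0.07 for Ccl3, -0.01 and -0.29 for Ccl4, 0.31 and -0.08 for Gzmb and 0.27 and -0.13 for Tnfrsf9, so depth moved with some of these genes, and its part was not tested.

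Promoters are printed for Ifng, Ccl3, Xcl1 and Gzmb. The rank correlation with Ifng in NTT and RTT_PTGS12KO was 0.57 and 0.67 for Ccl3, 0.52 and 0.38 for Xcl1 and 0.14 and 0.26 for Gzmb. Each is the 250 bases before the RefSeq start in GRCm38.p6, on the gene's strand. They lie at chr10:118440796-118441045 (Ifng, plus strand), chr11:83649379-83649628 (Ccl3, minus strand), chr1:164935523-164935772 (Xcl1, minus strand) and chr14:56262335-56262584 (Gzmb, minus strand). All 4 genes are annotated as protein coding, and Ccl4 is not in the promoter table. Capitals mark matches, on either strand, to the NFAT core GGAAA or the AP-1 motif TGANTCA. The cyclic AMP element TGACGTCA was also searched. These motifs do not overlap each other here.
Ifng: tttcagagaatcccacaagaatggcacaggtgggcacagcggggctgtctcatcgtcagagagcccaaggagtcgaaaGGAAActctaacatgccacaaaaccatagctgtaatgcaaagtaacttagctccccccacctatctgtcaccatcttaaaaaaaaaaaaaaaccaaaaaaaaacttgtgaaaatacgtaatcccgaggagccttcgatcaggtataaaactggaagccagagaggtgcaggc
Ccl3: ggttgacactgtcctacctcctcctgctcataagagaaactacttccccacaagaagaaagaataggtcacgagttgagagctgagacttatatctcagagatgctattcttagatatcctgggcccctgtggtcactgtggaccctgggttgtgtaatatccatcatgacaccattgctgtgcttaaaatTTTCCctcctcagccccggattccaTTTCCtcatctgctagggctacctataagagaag
Xcl1: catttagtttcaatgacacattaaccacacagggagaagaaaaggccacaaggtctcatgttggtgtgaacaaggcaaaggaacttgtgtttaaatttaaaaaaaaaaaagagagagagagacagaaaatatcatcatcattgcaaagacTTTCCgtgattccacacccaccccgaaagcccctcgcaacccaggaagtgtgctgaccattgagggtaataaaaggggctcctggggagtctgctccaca
Gzmb: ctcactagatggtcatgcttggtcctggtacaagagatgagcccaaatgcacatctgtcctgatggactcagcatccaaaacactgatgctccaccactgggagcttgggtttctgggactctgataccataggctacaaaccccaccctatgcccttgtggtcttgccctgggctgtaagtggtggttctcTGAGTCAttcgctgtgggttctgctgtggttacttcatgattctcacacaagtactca
The NFAT core was found once in the Ifng promoter, 2 times in Ccl3, once in Xcl1 and 0 times in Gzmb, whose single match was to the AP-1 motif. Of 32851 promoters of this length, 55.6% held the NFAT core, 6.75% the AP-1 motif and 1.55% the cyclic AMP element, so the NFAT matches are common. A match is a description of letters, and its absence from this window says nothing about the factor.

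Activation genes were not shifted as a group. Of 20 listed, 14 had at least 50 CPM in the mean, 9 were higher and 5 lower in RTT_PTGS12KO, and their median log2 ratio was 0.13 (-0.14 without the third load). Over all 2469 such genes 1327 were higher and 1142 lower, with a median of 0.02. Tnfrsf9 was at 308 and 370 CPM (log2 ratio 0.27), Tnfrsf4 (the costimulatory receptor OX40) at 71.1 and 103 CPM (0.53), Il2ra (the interleukin-2 receptor alpha chain) at 120 and 145 CPM (0.27) and Irf4, a factor induced by receptor signals, at 64.7 and 99.4 CPM (0.61). None of these 4 was past 2-fold, and without the third load Irf4 was at -0.06 and Tnfrsf4 at 0.04. At 4000 UMIs per cell Tnfrsf9 was found in 47.4% of NTT and 64.1% of RTT_PTGS12KO T cells, Tnfrsf4 in 9.90% and 22.3% and Irf4 in 22.4% and 30.7%. Other early response genes went the other way. Cd69, an early activation marker that holds T cells in tissue, was at 386 and 213 CPM (log2 ratio -0.85, -1.07 to -0.64; -0.43 without the third load), Egr1 at 170 and 96.8 CPM (-0.80) and Nr4a2 at 247 and 156 CPM (-0.66), whereas Nr4a3 was at 115 and 150 CPM (0.39).

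Il2, the gene of the T cell growth factor interleukin-2, showed how much 1 cell can weigh. It was at 7.05 CPM in NTT and 260 CPM in RTT_PTGS12KO, a log2 ratio of 5.02, but 278 of the 301 UMIs in RTT_PTGS12KO lay in 1 cell. That cell had 20042 UMIs, of which 1584 were Ifng, 1232 Ccl4, 333 Ccl3 and 88 Il3, a growth factor for myeloid precursors. It held 88 of the 90 Il3 UMIs as well, and 6 UMIs of Gzmb. Il2 had a UMI in 4 cells of each sample, and its log2 ratio was 7.33 without the second load and 0.39 without the third.

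Of 16 listed genes of exhausted T cells, 12 were below the minimum of 50 CPM in the mean. Most genes were below it too, since 2469 of the 13153 with a UMI in these T cells reached it. The other 4 (Ctla4, Havcr2, Cd160 and Nr4a2) had a median log2 ratio of -0.13. Of these 4, 0 were past 2-fold in either direction, beside 0.405% of all genes higher and 1.17% lower. Pdcd1 was at 23.7 CPM in NTT and 38.9 CPM in RTT_PTGS12KO, Lag3 (an inhibitory receptor for MHC class II) at 3.20 and 6.91 CPM, Tigit at 5.77 and 2.59 CPM, and Tox, a factor of the exhausted state, at 5.77 and 4.32 CPM. Tox2 and Cxcl13 had 0 UMIs in both. Ctla4, which competes with CD28 for its ligands, was at 113 and 91.6 CPM, Cd160 at 132 and 136 CPM, and Havcr2 (the inhibitory receptor TIM-3) at 37.2 and 68.3 CPM (log2 ratio 0.86, 0.37 to 1.39). At 4000 UMIs per cell Havcr2 was found in 10.2% and 27.8% of T cells, Pdcd1 in 8.10% and 13.8%, Ctla4 in 33.4% and 26.8% and Cd160 in 36.0% and 40.7%. Of the cells that were neither T nor NK cells, 26.7% and 20.1% had a Havcr2 UMI and at most 0.202% one of the other 3 genes. These shares include RNA made by those cells and do not measure free RNA. The part of free RNA in the Havcr2 share of T cells was not tested. A list of genes of precursor exhausted CD8 T cells had a median of 0.33, with 3 of 16 genes past 2-fold higher, beside 0.405% of all genes, and these 3 were again Ifng, Ccl3 and Ccl4. The median was -0.0084 without the third load and 0.0043 with equal weight per cell. A list of CD8 effector memory genes had a median of -0.23 with 0 of 14 past 2-fold.

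Genes of naive and memory-like T cells were lower in RTT_PTGS12KO. Of 15 listed, 5 had at least 50 CPM in the mean, all 5 were lower, and their median log2 ratio was -0.66. Over all genes 1142 of 2469 were lower, with a median of 0.02. Satb1, a chromatin organiser of T cells, was at 260 CPM in NTT (235 to 286) and 127 CPM in RTT_PTGS12KO (107 to 149), a log2 ratio of -1.02 (-1.31 to -0.75). By load it was at 292, 209 and 271 CPM in NTT and at 154, 130 and 111 CPM in RTT_PTGS12KO, so every load of RTT_PTGS12KO lay below every load of NTT. The ratio kept its sign in 17 of 17 other settings, of which those that only change which genes are counted could not alter it. In NK cells Satb1 was at 95.8 CPM in NTT and 67.8 CPM in RTT_PTGS12KO, and at 4000 UMIs per cell 0.544% and 0.669% of the cells that were neither T nor NK cells had a UMI. Over all cells that were not T cells, of which NK cells were 709 beside 7464 others in NTT and 306 beside 9945 in RTT_PTGS12KO, the log2 ratio was -1.33. Tcf7 was at 59.6 and 41.5 CPM (-0.51), Bcl2, which protects from cell death, at 97.4 and 61.4 CPM (-0.66), and Ccr7, the chemokine receptor for lymph node homing, at 140 and 138 CPM (-0.01). S1pr1, which lets T cells leave tissue, was below the minimum, at 35.9 and 9.51 CPM. Cd28, the main costimulatory receptor, was at 224 and 122 CPM (-0.87). At 4000 UMIs per cell Satb1 was found in 61.6% and 38.5% of T cells, Tcf7 in 23.3% and 11.9% and Cd69 in 64.1% and 47.5%. Cd69 was also found in fewer NK cells (45.5% and 36.0%) and fewer of the cells that were neither (21.2% and 11.8%) in RTT_PTGS12KO.

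**Figure D4:**
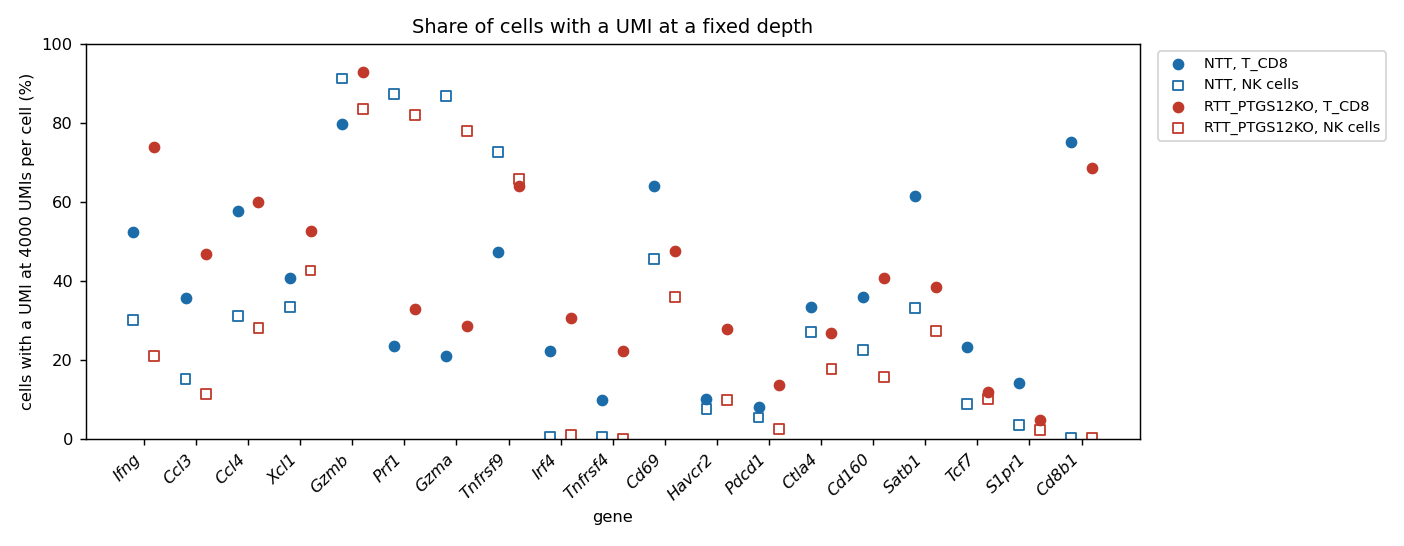
Share of cells with a UMI of each gene (vertical, percent) after thinning every cell to 4000 UMIs, for T_CD8 cells (filled circles) and NK cells (open squares) of NTT and RTT_PTGS12KO. Among T cells Ifng was in 52.4% and 73.9% and Satb1 in 61.6% and 38.5%, while Prf1 was in 87.4% and 82.0% of NK cells and 23.6% and 33.0% of T cells.

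Interferon response genes were lower in RTT_PTGS12KO T cells. Of 30 listed, 29 were in the table and 13 had at least 50 CPM in the mean. Of these 13, 12 were lower, 3 of them at least 2-fold, and the median log2 ratio was -0.58, beside 1142 of 2469 lower, 1.17% at least 2-fold lower and a median of 0.02 over all genes. Ifi27l2a was at 905 and 437 CPM (log2 ratio -1.05), Ifi209 at 70.5 and 33.7 CPM (-1.04), and Ly6a at 758 and 512 CPM (-0.57). Isg15, a ubiquitin-like protein, was at 77.5 and 30.2 CPM (-1.33) but turned to 0.28 without the 10% of T cells with the largest myeloid share. Over all cells that were not T cells, Ifi27l2a, Ifi209 and Isg15 were lower in RTT_PTGS12KO as well, by log2 ratios of -1.55, -1.43 and -1.79. These 3 genes were less abundant in T cells than in those cells of NTT, by log2 ratios of -1.94, -1.85 and -3.35, and the part of free RNA in these values was not tested. Ifngr1, a chain of the interferon-gamma receptor, was at 204 and 117 CPM (-0.80) in T cells.

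Many genes past 2-fold are better known from myeloid cells. Of the 10 higher genes 7, and of the 29 lower genes 8, were more abundant in T cells than in all other cells of the sample where their T cell level was higher. Among the lower ones were H2-Aa (538 and 148 CPM, log2 ratio -1.86), H2-Ab1 (-1.77), H2-Eb1 (-1.97) and Cd74 (-2.13), which build and chaperone MHC class II, and Il1b (-1.06) and Cxcl2 (-1.29), inflammatory signals of myeloid cells, of which 1 cell held 37.7% and 70.3% of the NTT UMIs. H2-Aa was lower over all other cells too (-1.07), and in T cells it was at -0.50 without the 10% of T cells with the largest myeloid share, -3.95 without the second load and -1.03 without the third. In 5 of the 10 higher and 4 of the 29 lower genes, at least 40% of the UMIs of the sample with the higher level lay in 1 cell. Spp1, a macrophage product, was at 188 and 786 CPM (2.05), with 437 of 909 UMIs in 1 RTT_PTGS12KO cell that also had 275 UMIs of Lyz2 (lysozyme of myeloid cells) and 9 of Xist, and its log2 ratio was 0.70 without the first load and 2.73 without the second. Slpi and G0s2, at -2.87 and -2.37, had 93.3% and 93.4% of their NTT UMIs in the same NTT cell. Idi1, an enzyme of cholesterol synthesis, was at 26.3 and 81.2 CPM (1.59), and the linker histone gene Hist1h1e at 48.1 and 135 CPM (1.47), each in over 20 cells of both samples. Over all cells that were not T cells Spp1, Idi1 and Hist1h1e were higher in RTT_PTGS12KO too, by log2 ratios of 3.11, 1.41 and 0.91.

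**Figure D5:**
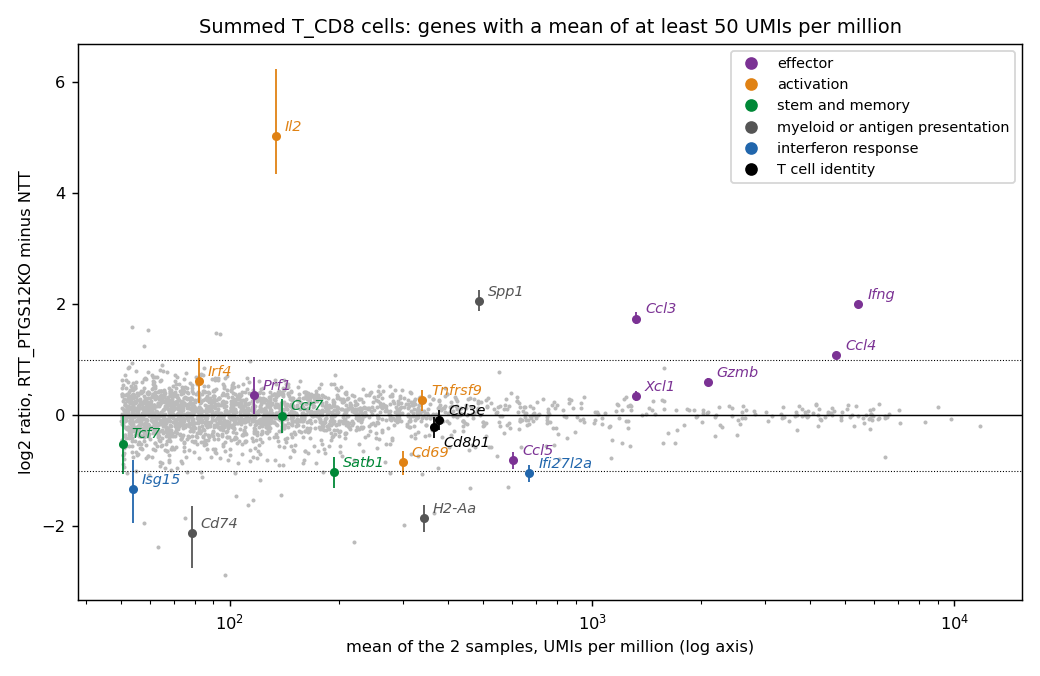
Log2 ratio of RTT_PTGS12KO minus NTT in summed T_CD8 cells (vertical) against mean level (horizontal, CPM, log axis) for 2469 genes, with counting intervals on the named genes and dotted lines at 2-fold. Ifng at 2.00, Ccl3 at 1.74 and Ccl4 at 1.07 stand above the upper line among the most abundant genes, and Satb1 at -1.02 lies below the lower line.

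Counting also genes that reached 50 CPM in either sample alone, the highest ratios were those of Il3, Alpk2, Il2, Rep15, Wdcp, Ccl1, 1700120C14Rik, Fn1, Spp1 and Ifng. Alpk2 and Rep15 came from 1 cell, which held 64 of 66 and 78 of 80 of their UMIs in RTT_PTGS12KO. Ccl1, a chemokine of activated T cells, had 17 UMIs in NTT and 94 in RTT_PTGS12KO. The lowest were those of Slpi, Sag, G0s2, Ifitm1, Cd74, H2-Eb1, Il1r2, Iigp1, Ptgs2 and H2-Aa. Ptgs2, which was edited in the cancer cells and not in these cells, stood at 119 and 32.0 CPM in T cells, below its level in all other cells. Of its NTT UMIs 58.9% lay in 1 cell, and without the highest cell of each sample it was at 49.3 and 17.7 CPM (log2 ratio -1.43).

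Receptor and lineage genes differed by less than 2-fold between both tumours, as did most genes. Over all 2469 genes 0.405% were at least 2-fold higher and 1.17% at least 2-fold lower, so a count of 0 does not set a short list apart. Of the 17 T cell identity genes with at least 50 CPM, 12 were lower in RTT_PTGS12KO, beside 1142 of 2469 over all genes. Their median log2 ratio was -0.22 (range -0.87 to 0.31), beside 0.02 over all genes, with 0 past 2-fold. The 10 receptor signalling genes had a median of -0.01. Cd3e was at 391 CPM in NTT and 366 CPM in RTT_PTGS12KO, Cd8a at 152 and 188 CPM and Cd8b1 at 394 and 338 CPM. Trbc2 and Trbc1, constant regions of the beta chain, were lower in RTT_PTGS12KO, at 1413 and 1002 CPM (log2 ratio -0.50, -0.60 to -0.39) and at 620 and 417 CPM (-0.57, -0.73 to -0.41), and since their sequences are nearly alike the split between them is uncertain. The 7 homing genes had a median of -0.36, the 7 cytokine receptors -0.22, the 8 effector factors -0.15, the 4 killer receptors 0.12 and the 11 glycolysis genes 0.18, each list with 0 genes past 2-fold. Of the effector factors Eomes was at 74.3 and 44.1 CPM (-0.74), with loads that overlapped, from 31.9 to 94.2 CPM in NTT and from 33.9 to 53.1 CPM in RTT_PTGS12KO. Irf8 was at 226 and 326 CPM (0.52) and Id2 at 227 and 224 CPM (-0.02), while Tbx21, the factor T-bet, was below the minimum at 26.9 and 25.1 CPM. The NK cell list had a median of -0.38 over 5 genes. The receptors for prostaglandin E2, the product of the enzymes knocked out in the cancer cells, were all below the minimum. Ptger2, the receptor EP2, had 14 UMIs in NTT and 14 in RTT_PTGS12KO T cells, and Ptger4, the receptor EP4, had 31 and 14. Ptger1 had 2 and 0 and Ptger3 2 and 2, too few to compare.

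RNA of the G2/M phase of the cell cycle was more abundant in T cells than in most other cells. At least 1 G2/M UMI per 1000 was found in 83 of 93 T cells of NTT (89.2%) and 42 of 45 of RTT_PTGS12KO (93.3%), beside 71.5% and 81.0% of NK cells and 33.5% and 36.6% of all other cells. At least 5 per 1000 were found in 41.9% (31.8 to 52.6) and 57.8% (42.2 to 72.3) of T cells and in 19.6% and 45.8% of NK cells. At least 10 per 1000 were found in 20.4% of NTT and 15.6% of RTT_PTGS12KO T cells, and in 9.73% and 25.5% of NK cells. At that limit RTT_PTGS12KO T cells were below those of NTT and below the NK cells of their own tumour. The median was 3.83 per 1000 in NTT and 6.27 in RTT_PTGS12KO T cells, beside 1.46 and 4.04 in NK cells and 0.805 and 0.815 in all other cells. Of the 33 G2/M genes with at least 50 CPM, 28 were higher in RTT_PTGS12KO, with a median log2 ratio of 0.19 (-0.056 without the third load) and 0 past 2-fold, and of 23 S phase genes 18 were higher, with a median of 0.13, beside 1327 of 2469 over all genes. Mki67, which marks cycling cells, was at 138 and 186 CPM, and Top2a, a topoisomerase of dividing cells, at 347 and 450 CPM. The Ifng ratio was 2.48 among cells under 5 G2/M UMIs per 1000 (54 NTT and 19 RTT_PTGS12KO cells), a limit chosen after the data were seen.

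NK cells were the nearest cells of the same tumours. Against them 8.63% of genes were at least 2-fold higher in T cells of NTT (208 of 2411) and 4.65% at least 2-fold lower (112), and in RTT_PTGS12KO the shares were 8.0% (193 of 2413) and 5.06% (122). The clustering used these genes, so the differences are a description. Apart from CD3 and CD8 genes the leading genes above NK cells were Themis and Cd5, which tune receptor signals, Cd6, Dapl1, Gm8369, Tnfrsf4 and Eif2s3y. Themis was at 104 and 111 CPM in T cells and 0 in NK cells of both samples. The lowest against NK cells were Gzmf, Gzmc, Gzmg, Gzme and Gzmd, granzymes encoded in the cluster of Gzmb, the receptors Klra4, Klra8, Klra7 and Klra9, and Car2. Gzmc was at 8.97 and 18.1 CPM in T cells and at 5387 and 7694 CPM in NK cells, so T cells in these tumours had little RNA of this granzyme. Prf1 was below its NK cell level by 3.42 and 3.20 on the log2 scale, and Gzmb was at -0.81 in NTT and 0.18 in RTT_PTGS12KO against NK cells. Ifng was above NK cells by 3.93 in NTT and 6.67 in RTT_PTGS12KO, and Irf4 by 4.62 and 4.78.

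Ribosome assembly genes stood out in T cells. Of 13 such genes that could be compared, 12 were at least 2-fold above NK cells in both samples, with a median log2 ratio of 1.51 beside 0.12 over all genes of NTT and 0.12 of RTT_PTGS12KO. Npm1, a nucleolar chaperone, was at 3855 and 4445 CPM in T cells and 1302 and 1801 CPM in NK cells, and Ncl (nucleolin) at 2122 and 2352 CPM in T cells and 560 and 716 CPM in NK cells. Between the tumours the list differed little, with a median of 0.19 over 16 genes and 0 past 2-fold, beside 0.405% of all genes higher and 1.17% lower. Against all other cells 19.6% of genes were at least 2-fold higher in T cells of NTT and 19.5% in RTT_PTGS12KO, and 23.1% and 20.6% were at least 2-fold lower. In this comparison the leading 20 genes of T cells were Cd8b1, Cd3e, Cd3d, Ifng, Trac, Cd8a, Themis, Cd3g, Trbc2, Lat, Dapl1, Eif2s3y, Cd5, Cd6, Crtam, Tnfrsf4, Serpine2, Trdc, Nefh and Klk8. Ifng was thus the only secreted cytokine among them. Crtam, an adhesion receptor of activated killer cells, was at 85.9 and 116 CPM in 46 and 29 cells.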

How the data were processed

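Single-cell 3' RNA libraries of CD45+ cells were made with cell multiplexing oligos. The authors deposited 1 matrix of UMI counts, 32285 genes by 33368 cells, with each cell's sample and cell type name. Per the labels and the study's methods, Cell Ranger (mm10) made the counts and Seurat 4.3.0 the names, and cells needed more than 1000 genes, less than 15% mitochondrial UMIs and less than 40% ribosomal UMIs. Loads were read from the barcode suffix. No doublet caller was run.

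Counts of T_CD8 cells were summed per sample and divided by total UMIs (CPM). Log2 ratios of CPM + 1 carry conditional exact binomial intervals and are on that scale, which understates the change of low genes. Genes that averaged 50 CPM or more over both samples were called at 2-fold. Per-cell shares used expected values after thinning to 4000 UMIs. Python 3.11.15, numpy 2.4.6, scipy 1.17.1, pandas 2.3.3, matplotlib 3.10.9 and edgeR 4.0.16 (R 4.3.3, TMM factors only) were used, and the steps were tested on simulated data. Guides were located in GENCODE transcripts of GRCm38 and promoters taken from RefSeq (GRCm38.p6).

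The cells and the 24 gene lists were chosen with earlier results of these data known. Named genes were the lists' genes, the 10 highest and 10 lowest ratios among genes reaching 50 CPM in either sample, and the 20 leading genes over other cells and 10 in each direction against NK cells. Other genes past 2-fold were named after their values were seen. Alternatives were a marker gate, removal of the 10% of T cells with the largest myeloid share, over 1500 genes and under 10% mitochondrial UMIs, CPM + 10, no minimum or 100 CPM, TMM factors, equal weight per cell, cells under 1 G2/M UMI per 1000, genes higher in T cells than in other cells, each load left out, thinning to 2500 UMIs or none, and a G2/M limit of 2 per 1000. Chosen after seeing the data were removal of the highest cell or 10% of cells per gene, cells without Xist UMIs, cells under 5 G2/M UMIs per 1000, the share among T and NK cells, and G2/M limits of 5 and 10 per 1000. Some listed genes are not reported here.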

Additional observations from a re-analysis of the deposited data

How the results depend on the processing

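No paired analysis was possible because there is 1 sample in every group. T cell shares moved by less than their counting intervals in all settings tried. Over all settings 322 ratios of single genes stayed within their counting interval, 124 moved outside it and 4 reversed. Settings that only change which genes are counted leave a single gene's ratio as it is, so the 322 include values that could not move. Of the 450 ratios 22 had the other sign, 4 of them for genes past 2-fold at the base and 18 for 10 genes under 2-fold, and 248 list medians stayed within the median of their genes' counting intervals and 35 did not. Fewer cells or genes entered several settings, and causes were not tested further. With 10 genes at least 2-fold higher and 29 lower in RTT_PTGS12KO as the base, counts were 16 and 11 without the T cells of largest myeloid share, 621 and 1114 with no minimum, 5 and 17 at 100 CPM, 23 and 45 with equal weight per cell, 454 and 443 in cells under 1 G2/M UMI per 1000 (10 and 3 cells), 44 and 87 under 5, and 6 and 7 among genes higher in T cells. In cells without Xist UMIs 23 were higher. Leaving out a load gave 14 to 36 higher and 24 to 49 lower genes. Against NK cells, counts of 208 and 112 in NTT and 193 and 122 in RTT_PTGS12KO went to 1273, 1197, 1096 and 1589 with no minimum and to 95, 63, 86 and 69 at 100 CPM.

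Without the T cells of largest myeloid share, Isg15 turned to 0.28 and Cst3 to 0.37, and without the 10% of cells with most UMIs of the gene Ccl4 turned to -0.025 and Cst3 to 0.083. Under 1 G2/M UMI per 1000, medians were 0.48 for effector memory, 0.62 for precursor exhausted and effector, -0.39 for receptor signalling, 0.45 for exhaustion, -2.66 for stem and memory, -0.46 for effector factors, -1.14 for homing, -0.70 for cytokine receptors, -3.38 for myeloid, 0.60 for S phase, 1.05 for ribosome assembly and -1.50 for interferon response genes. Under 5 per 1000 they were -0.070 for NK, 0.44 for effector, -0.66 for exhaustion, -1.15 for stem and memory, -0.45 for effector factors, 0.11 for myeloid, -0.88 for interferon response and -0.026 for glycolysis genes. With no minimum they were -0.57 for killer receptors, -0.74 for NK and 0.081 for effector memory genes. The NK list was at -0.058 at 100 CPM, -0.74 among genes higher in T cells and -0.15 without Xist, homing at 0.33 among genes higher in T cells, and precursor exhausted at 0.0043 with equal weight per cell. Leaving out a load gave -0.72 to -0.21 for NK, 0.014 to 0.55 for effector, -1.05 to 0.52 for myeloid and -0.0084 to 0.49 for precursor exhausted genes. Shares of T cells past the G2/M limit of 89.2% and 93.3% became 63.4% and 80.0% at 2 per 1000 and 41.9% and 57.8% at 5 per 1000. At 10 per 1000 they were 20.4% in NTT and 15.6% in RTT_PTGS12KO, so the direction turned. Thinned to 2500 UMIs, 45.1% of NTT and 66.8% of RTT_PTGS12KO T cells had an Ifng UMI. Depth limits most receptors and factors, which had few UMIs per cell.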

Other observations

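Lists that hold few genes at or above 50 CPM gave values that belong to no comparison. Of the CD4 T cell list only Ctla4 reached the minimum, of the gamma-delta list only Trdc (57.7 CPM in NTT and 55.3 in RTT_PTGS12KO), of the B cell list only Ighm (61.5 and 50.1 CPM), and of the melanoma list none, with Mitf at 1 and 2 UMIs. The myeloid list had a median log2 ratio of -0.37 over 13 genes, with Spp1 past 2-fold higher and Cst3 past 2-fold lower. Ly6c2, a monocyte marker that activated CD8 T cells also carry, was at 1031 CPM in NTT and 594 CPM in RTT_PTGS12KO T cells, and in each load it was at 783, 1156 and 1106 CPM and at 733, 669 and 443 CPM. It was at 514 and 139 CPM in NK cells and at 2264 and 534 CPM in all other cells.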
